A study of Mus musculus with 10 samples.

Results

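The 10 genes described here are the Wnt feedback genes *Axin2*, *Nkd1*, *Znrf3*, *Rnf43*, *Apcdd1* and *Sp5* and the Tcf/Lef transcription factors *Lef1*, *Tcf7*, *Tcf7l1* and *Tcf7l2*, followed in the cortical hem (CH) of wild-type and *Lmx1a*-/- mouse embryos. They were chosen by symbol, and all 10 were found among the 52227 genes of the count table and among the 21664 genes tested. In the *Lmx1a*-/- CH, *Nkd1* fell by 49.3%, *Znrf3* was higher in every mutant than in every wild-type embryo but missed the threshold, and the 4 Tcf/Lef factors overlapped between genotypes. Sex was largely confounded with genotype. The log2 fold change of *Nkd1*, -0.98, was -0.81 with a factor for Y-linked transcripts and -0.48 with the choroid plexus level as a covariate. *Nkd1* missed the threshold in both of these fits (edgeR quasi-likelihood FDR = 0.373 and 0.735).

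Wnt ligands act on Frizzled and Lrp receptors to stabilise β-catenin, which enters the nucleus and works with Tcf/Lef proteins on DNA. In many tissues the pathway turns on its own regulators: Axin2 rebuilds the complex that destroys β-catenin, Nkd1 binds Dishevelled, Znrf3 and Rnf43 remove Frizzled receptors from the cell surface, and Apcdd1 is a membrane inhibitor. The CH is a Wnt-rich signaling center at the edge of the medial cortex, next to the choroid plexus and the hippocampal primordium.

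RNA was sequenced from CH tissue cut out by laser at e13.5, from 5 untreated wild-type embryos and as many untreated *Lmx1a*-/- embryos. The mutant carries the *drJ* allele of *Lmx1a*, and the colony was kept on a mixed C57Bl6, FVB and CD1 background. Sections of 1 embryo were pooled into 1 library, and the CH boundary was taken from Lmx1a immunostaining of alternate sections. In such bulk tissue, fewer cells of a type and less RNA per cell cannot be told apart.

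Library totals lay between 19145952 and 36462780 counts, of which 20.6% to 27.6% were mitochondrial. *Lmx1a* transcripts were counted in both genotypes, at 71.2 ± 18.2 normalized CPM (counts scaled to library size, mean ± SD, n = 5) in wild type and 114 ± 21.0 in mutants. Since the counts do not separate *drJ* transcripts from normal ones, they are no check of the genotype. Summed CH markers reached 2380 to 4508 CPM in wild type and 2786 to 3923 CPM in mutants, with wild-type embryo 3 the lowest. Single markers differed more than this sum. Of 14 tested, 6 were lower in mutants and 1, *Lmx1a*, was higher at an FDR under 0.1 in edgeR's quasi-likelihood test. Over all genes, 2.29% were lower and 1.72% higher. *Lmo2*, among the lower ones, had a log2 fold change of -2.37. Y-linked transcripts summed to between 341 and 451 CPM in wild-type embryo 1 and all 5 mutants and to at most 0.0588 CPM in the other 4 wild-type embryos, so sex and genotype are largely confounded.

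Across all genes, 497 were lower (2.29%) and 373 higher (1.72%) in the *Lmx1a*-/- CH, together 4.02% of those tested, at an FDR under 0.1 in edgeR's quasi-likelihood test. Of the 10 genes, 1 was lower, 0 were higher and 9 did not pass, while DESeq2 called 1 lower and 1 higher. DESeq2 called 5.47% lower and 4.43% higher of the 17848 genes to which it gave an adjusted p. An unadjusted p under 0.05 was reached by 3 of the 10 genes and by 16.4% of all genes (8.7% lower and 7.66% higher). The ranges of both genotypes did not overlap for 2 of the 10 genes, *Nkd1* (lower) and *Znrf3* (higher), against 2.27% of all genes in the lower and 2.17% in the higher direction, or 4.44% in all. The median log2 fold change was -0.11 over the 10 genes and -0.0049 over all genes tested.

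**Figure D1:**
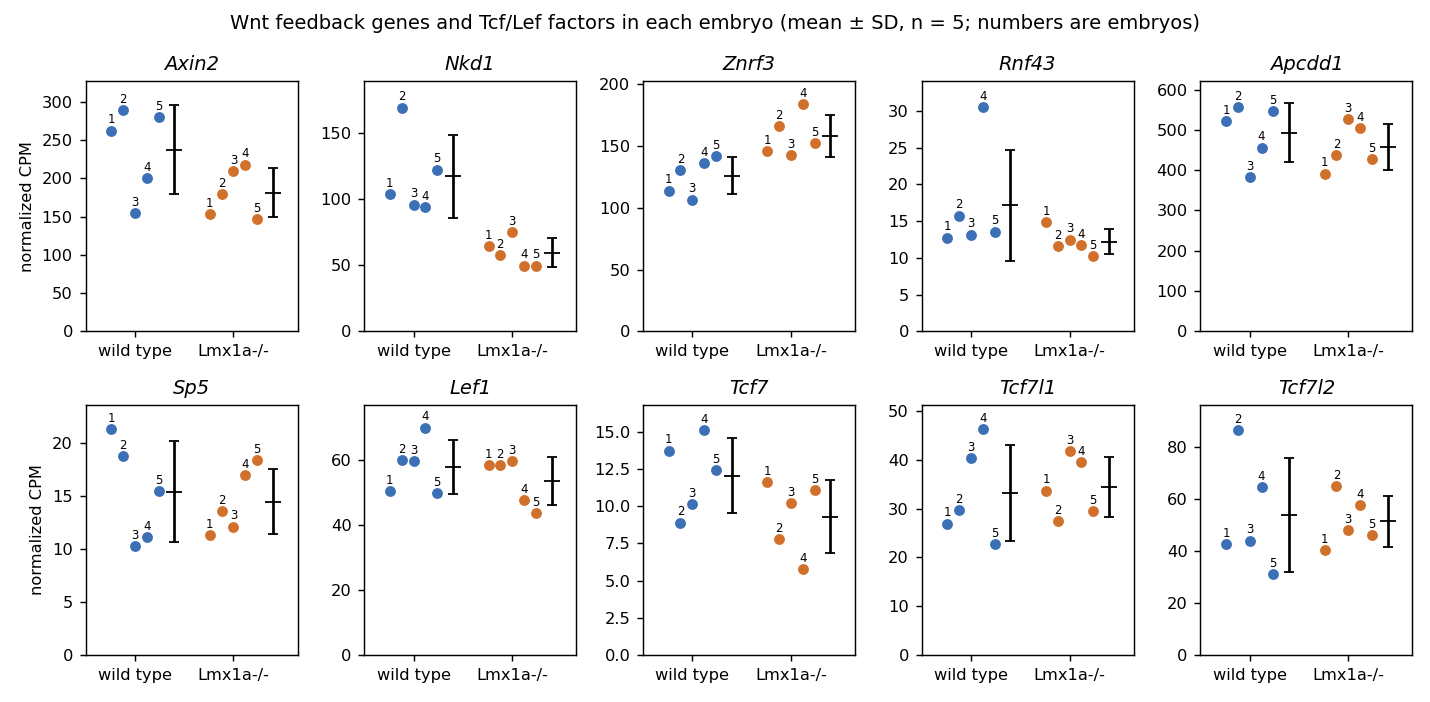
Normalized CPM (y axis, from 0 in each panel) of the 10 genes in each embryo, with wild type in blue, *Lmx1a*-/- in orange, embryo numbers beside the points, and black bars for mean ± SD (n = 5). The genotypes separate for *Nkd1* and *Znrf3*, in opposite directions, and overlap for the other 8 genes.

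*Nkd1* (chr8:88521354-88594884, plus strand, GRCm38) encodes a Dishevelled-binding inhibitor of Wnt signaling. Its level was 104, 170, 96.1, 94.1 and 123 CPM in wild-type embryos 1 to 5. In *Lmx1a*-/- embryos 1 to 5 it was 64.8, 58.0, 75.4, 49.7 and 49.7 CPM. The highest mutant thus lay below the lowest wild type. Its log2 fold change was -0.98 (SE 0.17, 95% interval -1.34 to -0.62, edgeR quasi-likelihood FDR = 0.0084), rank 131 by p among the genes tested. It passed the threshold in all 10 fits that left out 1 embryo, with log2 fold changes from -1.08 to -0.81.

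Markers of other cell types were set beside this result. Of 15 choroid plexus genes 13 were tested. In mutants 4 were lower and 0 higher, beside 2.29% and 1.72% of all genes. The 15 summed to 144 to 505 CPM in wild type and 159 to 239 CPM in mutants. None of the 15 was at 0 in all libraries. With the mean level of this list as a covariate, the log2 fold change of *Nkd1* was -0.48 (edgeR quasi-likelihood FDR = 0.735). With the presence of Y-linked transcripts as a factor it was -0.81 (edgeR quasi-likelihood FDR = 0.373). *Nkd1* was 104 CPM in the single wild-type embryo with Y-linked transcripts, above all 5 mutants, but 1 embryo cannot separate sex from genotype. Of 14 endothelial genes 0 were called, and 3 were lower at an unadjusted p under 0.05, beside 8.7% of all genes. They summed to 68.4 to 160 CPM in wild type and 58.3 to 104 CPM in mutants. With their level as a covariate, the log2 fold change of *Nkd1* was -0.999 (edgeR quasi-likelihood FDR = 0.0128). Markers of Cajal-Retzius cells, early neurons that the CH produces, were lower for 4 and higher for 1 of 9 tested, beside 2.29% and 1.72% of all genes. That list summed to 359 to 579 CPM in wild type and 247 to 355 CPM in mutants, without overlap. Of 12 mesenchyme and meninges markers 2, *Dcn* and *Lum*, were lower, beside 2.29% of all genes. The 12 summed to 356 to 930 CPM in wild type and 289 to 547 CPM in mutants. The part of both lists in the level of *Nkd1* was not tested. The wild-type and mutant levels of the choroid plexus list and of Y-linked transcripts are nearly separate, so their parts and that of the genotype cannot be told apart.

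*Nkd2*, the paralog of *Nkd1*, averaged 13.3 ± 4.73 CPM in wild type and 7.60 ± 2.75 in mutants, a log2 fold change of -0.80 (edgeR quasi-likelihood FDR = 0.165). The log2 ratio of *Nkd1* to *Nkd2* differed by -0.15 between genotypes, within the embryo spread (exact two-sided permutation test, n = 5 each, p = 0.667, adjusted p = 0.75 over 9 pairs).

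*Znrf3* (chr11:5276324-5444847, minus strand) encodes a ubiquitin ligase that clears Frizzled receptors. It stood at 114, 131, 107, 136 and 142 CPM in the wild-type embryos. The mutant embryos held 146, 166, 143, 184 and 153 CPM. Every mutant was above every wild-type embryo, by a small margin between wild-type embryo 5 and mutant embryo 3. The log2 fold change was 0.33 (SE 0.098, 95% interval 0.12 to 0.54), with an edgeR quasi-likelihood FDR of 0.108. It passed the threshold in 2 of the 10 fits that left out 1 embryo. It also passed with scaling by library size alone (edgeR quasi-likelihood FDR = 0.0853) and by DESeq2's Wald test (FDR = 0.0402). Under the choroid plexus covariate its value was 0.46 (edgeR quasi-likelihood FDR = 0.661), and with the Y-linked factor it was 0.47 (edgeR quasi-likelihood FDR = 0.414), so its sign was kept while its interval widened.

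*Rnf43* (chr11:87662722-87735539, plus strand) encodes the related ligase and was the lowest of the 10 genes per kilobase of exon. It was 12.8, 15.7, 13.1, 30.5 and 13.6 CPM in wild-type embryos. The mutant embryos gave 14.9, 11.6, 12.5, 11.7 and 10.2 CPM. Wild-type embryo 4 stood apart from the other 9 libraries, which overlapped. The log2 fold change was -0.49 (SE 0.23, 95% interval -0.99 to 0.0068, edgeR quasi-likelihood FDR = 0.313), and it was -0.19 without that embryo. The log2 ratio of *Znrf3* to *Rnf43* averaged 2.95 ± 0.47 in wild type and 3.70 ± 0.29 in mutants, a difference of 0.75 (exact two-sided permutation test, n = 5 each, p = 0.0159, adjusted p = 0.143 over 9 pairs).

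*Axin2* (chr11:108920349-108950783, plus strand) encodes a scaffold of the β-catenin destruction complex and is a widely used readout of the pathway. Wild-type embryos had 263, 290, 154, 201 and 280.5 CPM. Mutant embryos had 153, 179, 210, 218 and 146 CPM. The groups overlapped because wild-type embryos 3 and 4 lay among the mutants. The log2 fold change was -0.39 (SE 0.17, 95% interval -0.75 to -0.03, edgeR quasi-likelihood FDR = 0.261). Without wild-type embryo 3 it was -0.51 and passed the threshold (edgeR quasi-likelihood FDR = 0.0729), whereas with the choroid plexus covariate its sign turned, at 0.27 (edgeR quasi-likelihood FDR = 0.885). An antisense gene, *Gm11670*, shares 209 exon bases with *Axin2* and had at most 108 counts in a library.

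*Axin1*, which encodes the constitutive scaffold, was 32.0 ± 3.03 CPM in wild type and 34.9 ± 1.42 in mutants. The log2 ratio of *Axin2* to *Axin1* differed by -0.50 in mutants (exact two-sided permutation test, n = 5 each, p = 0.0476, adjusted p = 0.214).

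*Apcdd1* (chr18:62922231-62961179, plus strand), the membrane inhibitor, was 521, 557, 383, 456 and 547 CPM in wild-type embryos. It was 391, 438, 526, 504 and 427 CPM in mutant embryos. Both groups covered nearly the same range, and wild-type embryo 3 again had the lowest wild-type level. The log2 fold change was -0.11 (95% interval -0.35 to 0.13, edgeR quasi-likelihood FDR = 0.682), and it was 0.31 with the choroid plexus covariate.

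**Figure D2:**
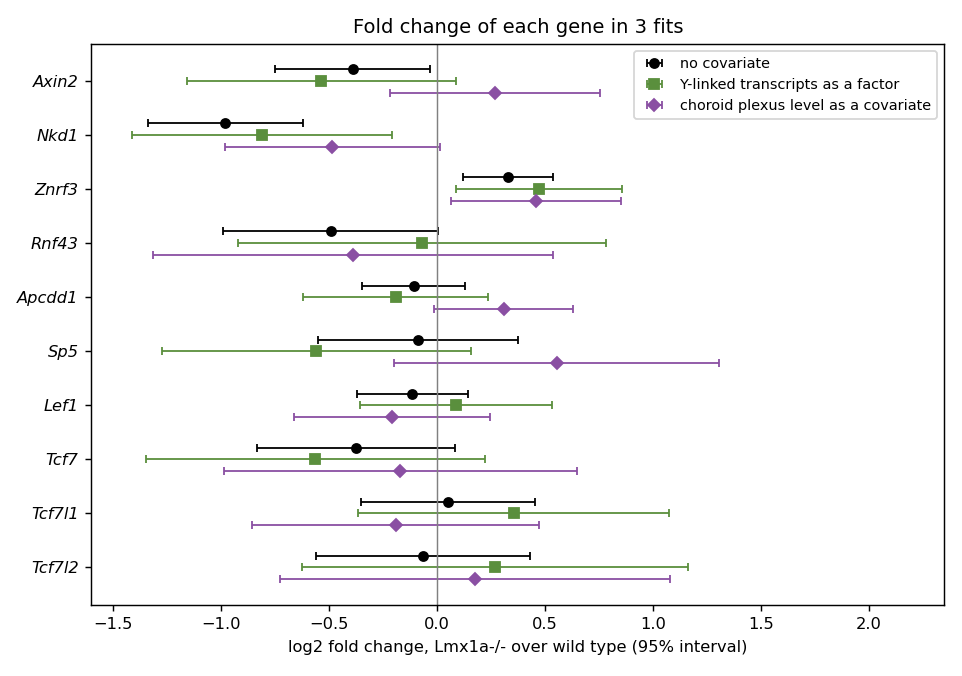
Log2 fold change, *Lmx1a*-/- over wild type (x axis), of the 10 genes with 95% intervals from edgeR's quasi-likelihood fits on 5 embryos per genotype, without a covariate (black circles), with Y-linked transcripts as a factor (green squares) and with the choroid plexus level as a covariate (purple diamonds). *Nkd1* is negative and *Znrf3* positive in all 3 fits, while *Axin2*, *Apcdd1* and *Sp5* turn from negative to positive with the choroid plexus covariate.

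Per kilobase of exon, the wild-type order was *Axin2* (43.1 CPM per kb), *Apcdd1* (38.2), *Nkd1* (25.7), *Znrf3* (16.0), *Tcf7l1* (8.47), *Sp5* (7.34), *Lef1* (6.58), *Tcf7l2* (6.12), *Tcf7* (4.59) and *Rnf43* (2.61). The ranges of neighbours in this order overlapped in wild type for all but 2 pairs, *Nkd1* with *Znrf3* and *Znrf3* with *Tcf7l1*. *Nkd1* exceeded *Znrf3* in 5 of 5 wild-type embryos and in 0 of 5 mutants, and *Axin2* exceeded *Apcdd1* in 4 of 5 wild-type embryos and 1 of 5 mutants. In raw counts, the ratio of *Nkd1* to *Znrf3*, chosen after the values were seen, was 0.914, 1.30, 0.901, 0.690 and 0.864 in wild-type embryos 1 to 5. It was 0.445, 0.349, 0.529, 0.270 and 0.326 in the mutants. Since *Nkd1* was lower and *Znrf3* higher in every mutant, the groups of this ratio had to separate, and it is a description only.

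*Sp5* (chr2:70474923-70477729, plus strand) encodes a zinc-finger factor that Wnt signaling activates in many embryonic tissues. It was 21.4, 18.8, 10.3, 11.2 and 15.5 CPM in wild-type embryos. The mutants gave 11.3, 13.6, 12.1, 17.0 and 18.4 CPM. The groups overlapped over most of their range, with a log2 fold change of -0.089 (95% interval -0.55 to 0.37, edgeR quasi-likelihood FDR = 0.885) that was 0.55 with the choroid plexus covariate.

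Tcf/Lef proteins bind DNA at a short motif, searched here as CTTTGAA, or as CTTTGAT, or as CTTTGTA, or as CTTTGTT, on both strands in the RefSeq promoter windows of GRCm38.p6, from 250 bases before to 50 bases after each start. Of the 10 genes 8 have a window there, and 3 of these (37.5%) held a match, against 5121 of 27025 genes (18.9%). By window, 3 of 14 (21.4%) of these genes' windows and 5544 of 32851 (16.9%) of all windows held one. The matches are shown because they are all that the search found among these genes, and of the feedback genes with a window *Sp5* alone held one. Each stretch of 29 bases is printed 5′ to 3′ on the plus strand, which is the strand of all 3 genes, with the motif in capitals.
*Sp5*, chr2:70474690-70474718, 222 bases before the start: ttcctagagatAACAAAGacactttgtca
*Sp5*, chr2:70474808-70474836, 104 bases before the start: ggcaaggccccCTTTGATcaggaaaatcc
*Lef1*, chr3:131156136-131156164, 147 bases before an internal start: caacctcagaaTACAAAGtaggattgcat
*Tcf7l2*, chr19:55895296-55895324, 14 bases before an internal start: aaaatatcaggCTTTGTTcttttgattga
A match describes letters in a window and does not show binding, and the 1 window of *Nkd1* (chr8:88527383-88527682), which held no match, lies at a start inside the gene as annotated by GENCODE.

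*Lef1* (chr3:131110471-131224356, plus strand) and *Tcf7* (chr11:52252371-52283014, minus strand) encode factors that mostly activate targets with β-catenin. *Lef1* was 50.2, 59.8, 59.6, 69.8 and 49.8 CPM in wild-type embryos. In mutants *Lef1* was 58.3, 58.4, 59.5, 47.5 and 43.5 CPM. Its interval is among the narrowest of the 10 genes, with a log2 fold change of -0.11 (95% interval -0.37 to 0.14, edgeR quasi-likelihood FDR = 0.689). The antisense gene *Gm43352*, with at most 38 counts, shares 1208 exon bases with *Lef1*.

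*Tcf7* gave 13.7, 8.88, 10.1, 15.1 and 12.4 CPM in wild type. The mutants gave 11.6, 7.77, 10.2, 5.76 and 11.1 CPM. Mutant embryo 4 held the lowest level, and the other mutants lay near or within the wild-type range. *Tcf7* had the lowest counts of the 10 genes, down to 143 in a library, and a log2 fold change of -0.37 (95% interval -0.83 to 0.085, edgeR quasi-likelihood FDR = 0.416).

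*Tcf7l1* (chr6:72626378-72789254, minus strand) encodes the member best known as a repressor. It ranged from 22.8 to 46.3 CPM in wild type and from 27.5 to 41.9 CPM in mutants, with a log2 fold change of 0.053 (95% interval -0.35 to 0.45, edgeR quasi-likelihood FDR = 0.925). *Tcf7l2* (chr19:55741820-55933654, plus strand), which can act either way and is high in the developing thalamus, ranged from 31.1 to 86.3 CPM in wild type and from 40.2 to 65.1 CPM in mutants. Its log2 fold change was -0.064 (95% interval -0.56 to 0.43, edgeR quasi-likelihood FDR = 0.926). These intervals leave room for changes of either sign. Of 10 tested thalamus and prethalamus markers 1, *Six3*, was higher, beside 1.72% of all genes. The list summed to 104 to 201 CPM in wild type and 162 to 242 CPM in mutants. Their part in the level of *Tcf7l2* was not tested. An antisense gene, *Gm15401*, with at most 15 counts, shares 179 exon bases with *Tcf7l1*.

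The makeup of the family was compared as each factor's share of the 4 factors' summed CPM per kb. *Tcf7l1* took 32.5 ± 5.06% in wild type and 36.0 ± 4.88% in mutants (SD, n = 5). *Lef1* took 25.8 ± 1.78% and 25.0 ± 2.54%, *Tcf7l2* 23.4 ± 7.09% and 24.2 ± 4.88%, and *Tcf7* 18.3 ± 5.09% and 14.7 ± 4.22%. The sum was 25.8 ± 5.00 CPM per kb in wild type and 24.2 ± 1.73 in mutants. All of these differences were smaller than the spread between embryos. None of the 6 ratios between the 4 factors passed an adjusted p of 0.05 over the 9 pairs. The largest in size, *Tcf7* to *Tcf7l1*, differed by -0.48 on the log2 scale (exact two-sided permutation test, n = 5 each, p = 0.198, adjusted p = 0.514). With 252 splits of the embryos the smallest p possible was 0.00794.

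**Figure D3:**
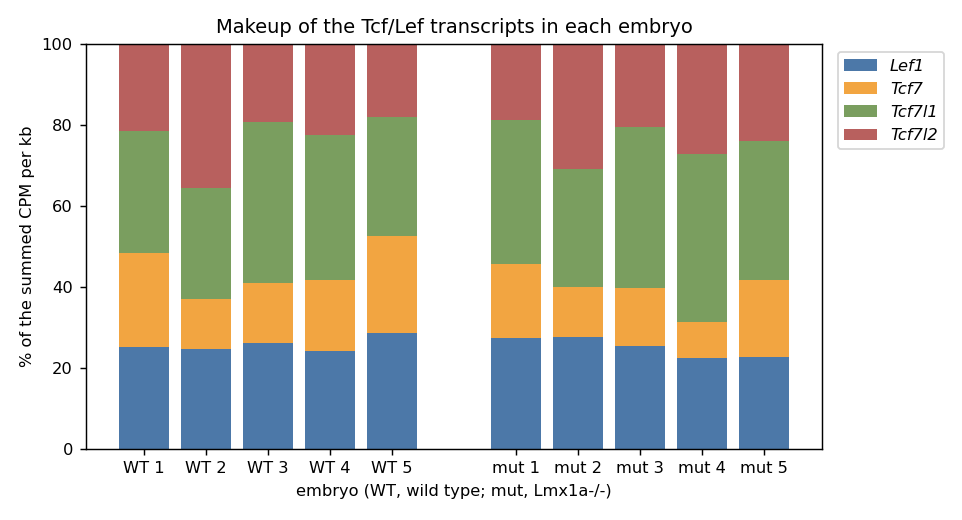
Share of the 4 Tcf/Lef factors' summed CPM per kb of exon (y axis, percent) in each embryo of both genotypes. *Tcf7l1* takes between 27.4% and 41.6% and *Lef1* between 22.3% and 28.7% in all 10 embryos.

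The genes acting on either side of these regulators were counted from pathway lists. Of 21 tested genes of the β-catenin destruction complex and Dishevelled group, 0 passed the threshold in edgeR's quasi-likelihood test, beside 4.02% of all genes. Their median log2 fold change was 0.035. At an unadjusted p under 0.05, 1 was lower and 3 were higher, beside 8.7% and 7.66% of all genes. DESeq2 called 0 lower and 1 higher, beside 5.47% and 4.43% of all genes. The smallest p values were those of *Gsk3b*, the kinase that marks β-catenin for destruction (0.24, FDR = 0.144), *Dvl2*, a Dishevelled (-0.35, FDR = 0.256), and *Amer1*, a membrane partner of the complex (0.22, FDR = 0.283).

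Of 21 tested nuclear partners of β-catenin and Tcf/Lef, 1 was lower and 1 higher, beside 2.29% and 1.72% of all genes. Their median log2 fold change was -0.00027. *Tle3* and *Tle4* encode Groucho corepressors that bind Tcf/Lef proteins. *Tle3* fell from 89.8 ± 6.68 to 70.3 ± 9.80 CPM (log2 fold change -0.35, edgeR quasi-likelihood FDR = 0.0907), and its groups did not overlap. *Tle4* rose from 83.7 ± 11.5 to 114 ± 16.4 CPM (log2 fold change 0.44, edgeR quasi-likelihood FDR = 0.0631), with the highest wild-type embryo at 103 CPM and the lowest mutant at 101 CPM. Both were lost at an FDR of 0.05 and with the choroid plexus, endothelial or Y-linked term in the fit.

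Of 19 other genes often activated by Wnt signaling 14 were tested. In edgeR's quasi-likelihood test 0 were lower and 1 was higher, beside 2.29% and 1.72% of all genes. A negative log2 fold change was found for 10 of the 14, beside 50.6% of all genes tested. The median of the 14 was -0.65. The list includes low-level genes with wide errors, such as *Notum* (mean of 0.53 CPM in wild type, SE of the log2 fold change 1.15) and *Dkk1* (4.63 CPM, SE 0.90). At an unadjusted p under 0.05, 4 were lower and 2 higher, beside 8.7% and 7.66% of all genes. DESeq2 called the same numbers, 4 and 2, beside 5.47% and 4.43% of all genes. *Emx2*, a homeobox gene of the medial cortex, rose from 108 ± 23.1 to 169 ± 20.2 CPM without overlap between genotypes. In edgeR's quasi-likelihood test its FDR was 0.0356, for a log2 fold change of 0.65 with an SE of 0.14. The call was lost with the Y-linked factor and with the choroid plexus covariate. Of 8 markers of the cortical neuroepithelium 1, *Dmrt3*, was higher, beside 1.72% of all genes. A positive log2 fold change was found for 7 of the 8 and a negative one for 1, *Dmrta2* (-0.27). Summed, these markers gave 463 to 783 CPM in wild type and 725 to 932 CPM in mutants, with overlap. Their part in the level of *Emx2* was not tested. *Bambi*, a TGF-β pseudoreceptor (-1.03, FDR = 0.131), *Mycn*, a proto-oncogene (0.51, FDR = 0.113), and *Cd44*, an adhesion receptor (-0.99, FDR = 0.144), came nearest the threshold without passing it in edgeR's quasi-likelihood test, and are named after their values were seen.

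**Figure D4:**
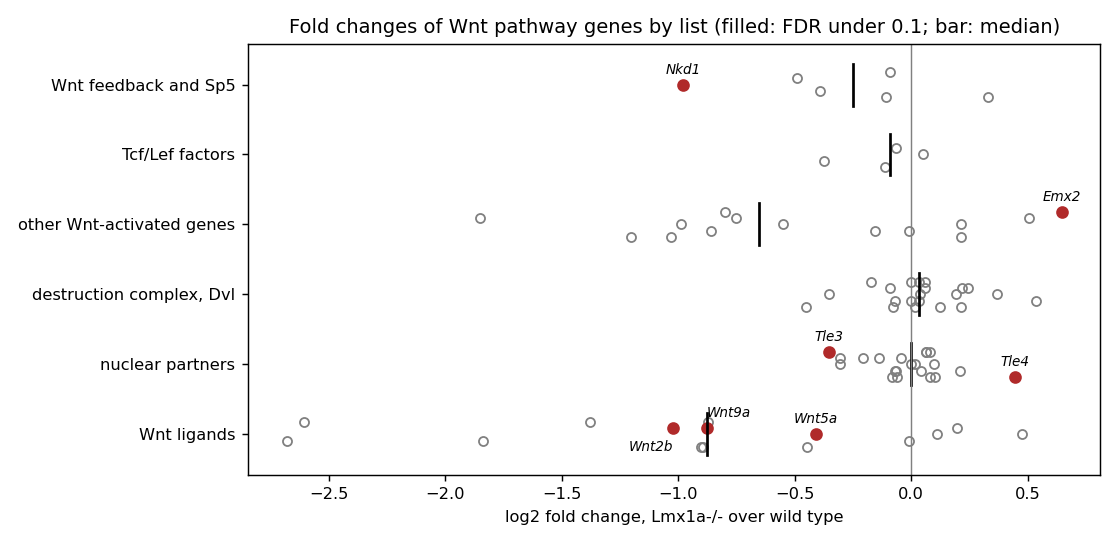
Log2 fold change, *Lmx1a*-/- over wild type (x axis), of every tested gene by pathway list (y axis), with filled, named points for genes past an FDR of 0.1 in edgeR's quasi-likelihood test and a bar at each list's median. The destruction complex and nuclear partner lists lie close to 0, with medians of 0.035 and -0.00027. The Wnt ligand list, which includes low-level genes such as *Wnt10b* (mean of 1.44 CPM in wild type), has a median of -0.88.

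The ligands upstream were summed to set the feedback genes beside them. Of 19 *Wnt* genes 15 were tested, and 3 were lower (*Wnt2b*, *Wnt9a* and *Wnt5a*) and 0 higher, beside 2.29% and 1.72% of all genes. DESeq2 called 6 lower and 0 higher, beside 5.47% and 4.43% of all genes, and an unadjusted p under 0.05 was reached by 7 lower and 0 higher, beside 8.7% and 7.66% of all genes. *Wnt2b* had a log2 fold change of -1.02 (edgeR quasi-likelihood FDR = 0.012) and *Wnt9a* one of -0.88 (edgeR quasi-likelihood FDR = 0.043). *Wnt5a*, a ligand that often signals without β-catenin, had a log2 fold change of -0.41 (edgeR quasi-likelihood FDR = 0.077). *Wnt3a* was not called (log2 fold change -0.45, edgeR quasi-likelihood FDR = 0.172). The 3 calls became 0 with the Y-linked factor or the choroid plexus covariate and 1 with the replicate block. The summed ligand level was 1678, 1793, 1169, 1680 and 1941 CPM in wild-type embryos 1 to 5. It was 1373, 1501, 1627, 1416 and 1413 CPM in mutants, so the groups overlapped through wild-type embryo 3. The most abundant ligand, *Wnt8b*, averaged 851 ± 198 CPM in wild type and 920 ± 71.4 CPM in mutants, and was picked after the values were seen. *Wnt5a* came next, at 380 and 286 CPM, while the whole sum averaged 1652 and 1466 CPM. The sum thus rests mainly on *Wnt8b* and *Wnt5a*, and much less on *Wnt2b*, *Wnt9a* and *Wnt3a*.

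With each genotype centred on its own mean, *Apcdd1* and *Axin2* followed the summed ligands most closely among the 10 genes. The ligand list shares *Wnt2b*, *Wnt3a*, *Wnt5a* and *Wnt8b* with the CH marker list. Summed CH markers were 3779, 4154, 2380, 3293 and 4508 CPM in wild-type embryos 1 to 5. They were 2786, 3138, 3529, 3923 and 3341 CPM in mutants. The part of the amount of CH in each dissected piece in these relations was not tested. For *Apcdd1*, Pearson's r was 0.83 (exact within-genotype permutation, n = 10, p = 0.00681, adjusted p = 0.117) and Spearman's rho 0.81 (exact permutation p = 0.00403, adjusted p = 0.0806). For *Axin2*, r was 0.81 (exact within-genotype permutation p = 0.0117, adjusted p = 0.117) and rho 0.71 (exact permutation p = 0.0277, adjusted p = 0.193). Leaving out wild-type embryos 3 and 5, the farthest from the median, gave r of 0.70 for *Apcdd1* and 0.59 for *Axin2*. *Nkd1* had an r of 0.52 (exact permutation p = 0.214, adjusted p = 0.535) and a rho of 0.45 (exact permutation p = 0.218, adjusted p = 0.623), and r was 0.63 without those embryos.

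The level of the choroid plexus list went with the same genes, with r of 0.78 for *Apcdd1*, 0.74 for *Axin2* and 0.59 for *Nkd1*. For these 3 genes rho was 0.72, 0.55 and 0.71 (exact permutation p = 0.0331, 0.128 and 0.0385), and the p of r was 0.0191, 0.0388 and 0.138 by the same exact permutation. Without wild-type embryos 3 and 2, r fell to 0.48, 0.30 and 0.32. None of the 20 relations computed passed an adjusted p of 0.05. All of the reduced r values leave out wild-type embryo 3, which had the lowest ligand sum, choroid plexus sum and CH marker sum. Among wild-type embryos it also had the highest sums of mesenchyme and meninges markers (930 CPM) and of cortical neuroepithelium markers (783 CPM). Each genotype alone holds too few embryos for a relation of its own.

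**Figure D5:**
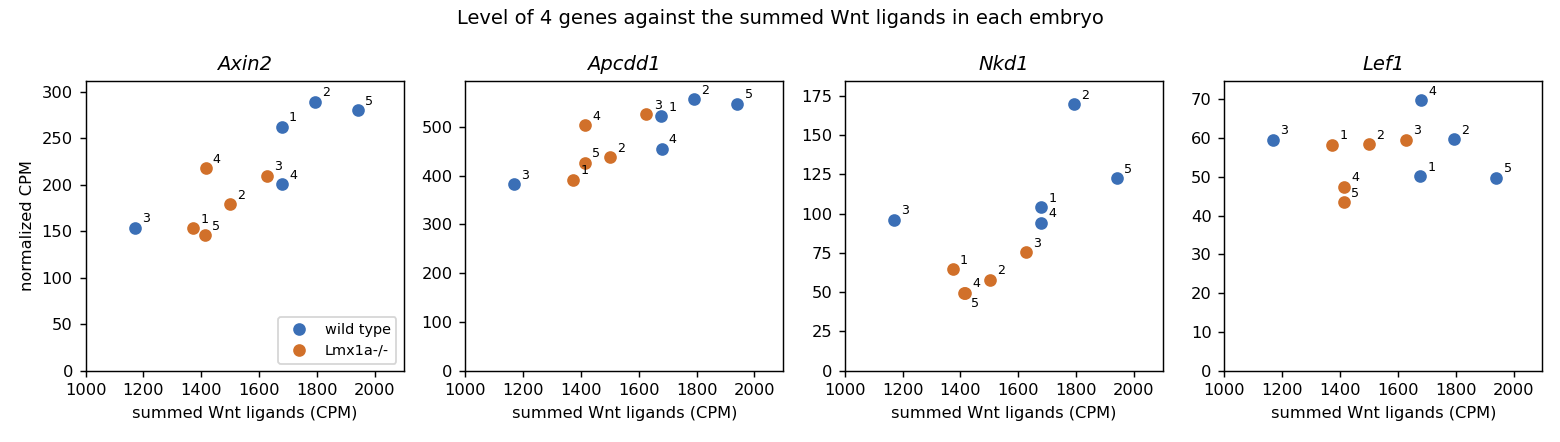
Normalized CPM of *Axin2*, *Apcdd1*, *Nkd1* and *Lef1* (y axes, from 0) against the summed CPM of the Wnt ligands (x axis) in each embryo, with wild type in blue, *Lmx1a*-/- in orange and embryo numbers beside the points. Wild-type embryo 3, with a ligand sum of 1169 CPM, has the lowest wild-type *Axin2* and *Apcdd1*.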

How the data were processed

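RNA-seq libraries were made from laser-captured CH with a SMARTER mRNA-Seq kit, 1 library per embryo. Per the labels and the study's methods, the authors ran FastQC 0.11.8, used Trimmomatic for trimming and STAR 2.7.1a for alignment to GRCm38, and counted reads per Ensembl gene with HTSeq 0.11.2. The deposited values are these raw counts. The strand setting of HTSeq is not given in the sources used here, so overlapping antisense genes are uncertain.

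The table held 52508 rows, of which 281 exact repeats were dropped. A gene was tested where 3 or more libraries held 10 or more of its counts, with edgeR 4.0.16 (R 4.3.3, quasi-likelihood test, TMM scaling, no covariate) and Benjamini-Hochberg adjustment over all genes tested, at an FDR under 0.1. CPM are TMM-scaled. Exon lengths and positions are from GENCODE M21 (GRCm38), promoter windows from RefSeq (GRCm38.p6). Log2 ratios used a pseudocount of 0.5 counts and an exact permutation over the 252 splits of the embryos, and relations an exact permutation over the 14400 orders within genotypes. Library totals set counting error only, which was at most 8.36% (CV) for the lowest count of the 10 genes.

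All 10 genes were described, and of each pathway list every gene past the threshold or, where there was none, the 3 with the smallest p. The 10 genes and all lists were chosen with earlier results of these data known. Genotypes and embryo numbers come from the labels, which do not say whether embryos shared a litter. The study calls the wild-type controls littermates of the mutants, without saying which of these embryos shared a litter. The alternatives were RLE or library-size scaling, other filters, the likelihood ratio test, robust dispersions, a newer quasi-likelihood method, a replicate block, covariates, DESeq2 1.42.0, a stricter FDR and leaving out each embryo. The fit was tested on simulated data.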

Additional observations from a re-analysis of the deposited data

Results flagged for a closer look

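*Rnf43* was 30.5 CPM in wild-type embryo 4, while the other 4 wild-type embryos lay between 12.8 and 15.7 CPM. The gap to the nearest embryo was 0.832 of the whole wild-type range, above Dixon's critical value of 0.71 for 5 samples. It was the 1 such value among the 20 groups of 5 embryos that were checked, and chance alone gives about that many. Without this embryo the log2 fold change of *Rnf43* was -0.19 (edgeR quasi-likelihood FDR = 0.621).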

How the results depend on the processing

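The direction of *Nkd1* and *Znrf3* was kept under every alternative run. *Znrf3* made the 1 higher call among the 10 genes under library-size scaling, the likelihood ratio test, robust dispersions, the newer quasi-likelihood method, the replicate block and DESeq2. Over all genes tested, the lower and higher calls (497 and 373) became 976 and 790 with DESeq2, 251 and 197 at an FDR of 0.05, 38 and 6 with the Y-linked factor, and 10 and 10 with the choroid plexus covariate. The likelihood ratio test gave 805 lower calls. With the Y-linked factor or the choroid plexus covariate, 0 of the 10 genes and 0 Wnt ligands were called lower and 0 other Wnt-activated genes higher. Unadjusted p values under 0.05 then numbered 2052 and 1468. *Lef1* (0.088) and *Tcf7l2* (0.27) turned sign with the Y-linked factor. *Axin2* (0.27), *Apcdd1* (0.31), *Sp5* (0.55), *Tcf7l1* (-0.19) and *Tcf7l2* (0.18) did so with the choroid plexus covariate, and *Tcf7l1* (-0.075) with the endothelial one. Nuclear partners fell to 0 lower calls with library-size scaling, without the count filter, and with the Y-linked, choroid plexus or endothelial term, and at an FDR of 0.05. Their higher calls fell to 0 with the same 3 terms, at an FDR of 0.05 and with the block. Other Wnt-activated genes had 2 lower and 2 higher calls with the likelihood ratio test and with the endothelial term, and 4 lower and 2 higher with DESeq2, which also called 6 Wnt ligands lower. The destruction complex list had 1 higher call with DESeq2 and with library-size scaling, under which the relations of *Lef1* (0.030) and *Tcf7l2* (-0.023) to the ligands turned sign. The cause of these changes was not tested.

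Leaving out 1 embryo gave 261 to 604 lower and 190 to 455 higher genes, both lowest without mutant embryo 4. Among the 10 genes it gave 1 to 2 lower and 0 to 1 higher calls, among Wnt ligands 1 to 4 lower, among nuclear partners 0 to 2 lower and 0 to 1 higher, among other Wnt-activated genes 0 to 1 lower and 1 to 3 higher, and in the destruction complex list 0 to 1 higher. Log2 fold changes then ran from -0.21 to 0.057 for *Sp5*, -0.060 to 0.20 for *Tcf7l1* and -0.21 to 0.17 for *Tcf7l2*, and the log ratios from -0.40 to 0.057 for *Nkd1*/*Nkd2*, -0.15 to 0.24 for *Tcf7l1*/*Tcf7l2* and -0.30 to 0.00097 for *Lef1*/*Tcf7l2*.

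Embryos that share a number did not deviate together (correlations -0.136 to 0.0332, and none was closest to its own number). These correlations gave no sign of pairing by number, but they cannot exclude shared litters. With the replicate block there were 248 higher genes, 2 lower other Wnt-activated genes and 1 lower Wnt ligand, *Znrf3* passed (edgeR quasi-likelihood FDR = 0.0858), *Nkd1* stayed lower (-0.96) and *Tcf7l2* turned sign (0.0049).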
